A study of Homo sapiens with 2 samples.

Results

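Metallothioneins are small proteins that bind zinc, copper, and cadmium, and their genes lie side by side on the long arm of human chromosome 16. The 8 genes described here, *MT1A*, *MT1E*, *MT1F*, *MT1G*, *MT1H*, *MT1M*, *MT1X*, and *MT2A*, were taken by name from both count tables, and made up 8 of the 33538 listed genes. HCT116, a human colon cancer cell line, was treated with decitabine (DAC), a cytidine analog that traps the enzymes which keep DNA methylated during replication. DAC cells had 2 doses of 0.5 μM, 2 days apart, and were taken for sequencing 7 days after plating, following 2 days without the drug, and mock cells were the mock-treated HCT116 cells of the other group, both grown in McCoy's 5A medium with 10% serum. Single cells from each group were captured in droplets, and each mRNA molecule was read near its 3′ end and carried a unique molecular identifier (UMI), by which copies of 1 molecule were counted once. The question addressed was which metallothionein genes differed between DAC-treated and mock-treated cells, and in how many cells.

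Metallothioneins hold metal ions through their many cysteines, and so buffer free zinc and copper and bind toxic cadmium. Their transcription is driven by zinc through MTF1, a transcription factor that binds metal response elements in their promoters, and *MT2A* also responds to glucocorticoids. In colorectal and other tumors, metallothionein levels are often low, and methylation of the *MT1G* promoter has been described in several tumor types.

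The mock library held 1783 cells and 49911689 UMIs, and its median cell had 27899. The DAC library held 1751 cells and 59046165 UMIs, and its median cell had 35340. There was 1 library per group, and cells of 1 library are not replicates, so no test was made between groups and no difference has a replicate check. Intervals are exact 95% confidence intervals for counting error alone. Differences in culture or library preparation cannot be told apart from the treatment. The libraries shared 12 barcodes, of which 7 held over 50000 UMIs in the mock library and 3 in the DAC library. Without these barcodes, each of the 8 genes kept the sign of its ratio between the libraries.

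*MT2A*, the most widely expressed human metallothionein, and *MT1E* were the most abundant of the 8 genes in both libraries and were lower in DAC cells. *MT1X* and *MT1F* were somewhat higher in DAC cells. *MT1A*, *MT1G*, *MT1H*, and *MT1M* were at or near 0 in mock cells and were present in a fraction of DAC cells. Of the 8 genes, 4 had a share of all UMIs (CPM, UMIs of the gene per 1000000 UMIs of the library) that was at least 2-fold higher in DAC cells, and 0 of the 8 were at least 2-fold lower. Over the 16573 genes with at least 20 UMIs in whichever library had more, 22.9% were at least 2-fold higher and 7.61% at least 2-fold lower. All 8 genes passed this minimum, *MT1A*, *MT1G*, *MT1H*, and *MT1M* through the DAC library alone, so the count of 4 carries no weight beyond its values.

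Since zinc acts on these genes through their promoters, the promoters of 3 genes with different levels are shown, that of *MT2A* (high in both libraries), *MT1X* (moderate), and *MT1H* (0 UMIs in mock cells). The sequences are those of RefSeq for GRCh38.p14, given on the plus strand, on which the 3 genes lie, and run from 250 bases before the start of the gene to 50 after it, at chr16:56608334-56608633 for *MT2A*, chr16:56682220-56682519 for *MT1X*, and chr16:56669564-56669863 for *MT1H*. Capitals mark matches to the core of the metal response element, searched as TGCACNC and TGCGCNC on both strands.
MT2A: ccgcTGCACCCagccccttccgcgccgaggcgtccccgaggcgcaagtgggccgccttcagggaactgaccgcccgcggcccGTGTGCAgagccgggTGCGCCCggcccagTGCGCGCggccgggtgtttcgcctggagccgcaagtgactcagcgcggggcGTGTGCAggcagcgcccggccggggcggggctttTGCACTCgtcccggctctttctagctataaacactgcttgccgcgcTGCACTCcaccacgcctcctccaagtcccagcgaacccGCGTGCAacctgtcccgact
MT1X: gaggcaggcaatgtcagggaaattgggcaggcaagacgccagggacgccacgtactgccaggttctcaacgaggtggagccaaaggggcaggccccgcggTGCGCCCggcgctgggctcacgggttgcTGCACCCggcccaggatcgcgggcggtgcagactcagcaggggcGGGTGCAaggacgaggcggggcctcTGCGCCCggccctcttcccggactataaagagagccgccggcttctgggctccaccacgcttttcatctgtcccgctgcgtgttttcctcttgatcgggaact
MT1H: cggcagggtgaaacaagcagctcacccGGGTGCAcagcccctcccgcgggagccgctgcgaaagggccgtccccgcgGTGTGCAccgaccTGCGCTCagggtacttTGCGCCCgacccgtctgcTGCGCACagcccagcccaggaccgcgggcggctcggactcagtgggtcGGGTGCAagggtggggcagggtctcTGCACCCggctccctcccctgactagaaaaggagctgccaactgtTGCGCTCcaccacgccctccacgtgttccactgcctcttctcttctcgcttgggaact
The *MT2A* and *MT1H* promoters each held 8 matches, and the *MT1X* promoter held 4. No matches overlapped within these promoters. Of the 35116 promoters of this length in the table, 29.6% held at least 1 match, 0.601% held at least 4, and 0.0199% held at least 8. The *MT2A* promoter had 37 CpG sites, that of *MT1X* 26, and that of *MT1H* 25, and the median over all promoters was 14. *MT1H* and *MT2A*, which differed most in level, thus had the same number of matches. A match is a description of the letters, and neither the binding of MTF1 nor DNA methylation was measured in these libraries. The table matched 3 of the 8 genes, and *MT1A*, *MT1E*, *MT1F*, *MT1G*, and *MT1M* are named here without a promoter.

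The 8 genes lie within 75.6 kb on chromosome 16 of hg38, from 56608584 to 56684196, in the order *MT2A*, *MT1E*, *MT1M*, *MT1A*, *MT1F*, *MT1G*, *MT1H*, and *MT1X*. *MT1G* is on the minus strand and the other members are on the plus strand. *MT2A* (ENSG00000125148) spans 56608584 to 56609497 and has 3 exons. *MT1E* (ENSG00000169715) spans 56625475 to 56627112, and *MT1X* (ENSG00000187193) spans 56682470 to 56684196, where a non-coding gene is annotated over it on the same strand. *MT1G* (ENSG00000125144) spans 56666730 to 56668065, and *MT1H* (ENSG00000205358) spans 56669814 to 56671129. The genes *MT1M* (ENSG00000205364), *MT1A* (ENSG00000205362), and *MT1F* (ENSG00000198417) begin at 56632659, 56638666, and 56657731. The coding sequences of the family are close to identical, so that reads can be assigned to a wrong copy and the counts of each *MT1* gene are uncertain to that extent. In the mock library, which held 25884 UMIs of *MT1E*, the counts of *MT1A* and *MT1H* were 0, and those of *MT1G* and *MT1M* were 9 and 3. How many reads were assigned to a wrong copy was not tested.

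*MT2A* had 67943 UMIs in the mock library (95% confidence interval 67433 to 68456) and 62224 in the DAC library (61736 to 62715). Its level was 1361 CPM in mock cells and 1054 CPM in DAC cells, a ratio of 0.774 (0.766 to 0.783) or -0.37 on the log2 scale. *MT1E* had 25884 UMIs (25570 to 26201) in mock cells and 23760 UMIs (23459 to 24064) in DAC cells. Its level was 519 CPM in mock cells and 402 CPM in DAC cells, a ratio of 0.776 (0.762 to 0.790). The ratios of *MT2A* and *MT1E* were thus within each other's intervals, and both genes were lower in the DAC library.

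*MT1X* had 3025 UMIs in mock cells and 5354 UMIs in DAC cells. Its level was 60.6 CPM in mock cells and 90.7 CPM in DAC cells, a ratio of 1.496 (1.43 to 1.56) or 0.58 on the log2 scale. *MT1F* had 435 UMIs in mock cells and 653 UMIs in DAC cells. Its level was 8.72 CPM in mock cells and 11.1 CPM in DAC cells, a ratio of 1.27 (1.12 to 1.44) or 0.34 on the log2 scale. The median log2 ratio over the 16573 compared genes was 0.30, close to that of *MT1F*. Median-of-ratios scaling, which sets the median ratio of the 11152 genes with 100 UMIs or more in both libraries to 1, lowered each log2 ratio by 0.18. With this scaling the log2 ratio was -0.55 for *MT2A*, -0.55 for *MT1E*, 0.40 for *MT1X*, and 0.16 for *MT1F*, and no gene changed its sign.

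*MT1G* had 9 UMIs in mock cells (4.12 to 17.1), each in a different cell, and 1386 UMIs in DAC cells (1314 to 1461). Its level was 0.180 CPM in mock cells and 23.5 CPM in DAC cells, a ratio of 130 (68.4 to 285) or 7.02 on the log2 scale. *MT1H* had 0 UMIs in mock cells and 394 UMIs in DAC cells (356 to 435). Its CPM was at least 111-fold higher in DAC cells, taking 3 counts over the library for the count of 0. *MT1A* had 0 UMIs in mock cells and 304 UMIs in DAC cells (271 to 340). Its CPM was at least 85.7-fold higher in DAC cells against the same 3 counts. *MT1M* had 3 UMIs in mock cells (0.619 to 8.77) and 185 UMIs in DAC cells (159 to 214), a CPM ratio of 52.1 (17.6 to 255). Of these 4 genes, *MT1G* had the highest level in DAC cells, above the 11.1 CPM of *MT1F*.

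**Figure D1:**
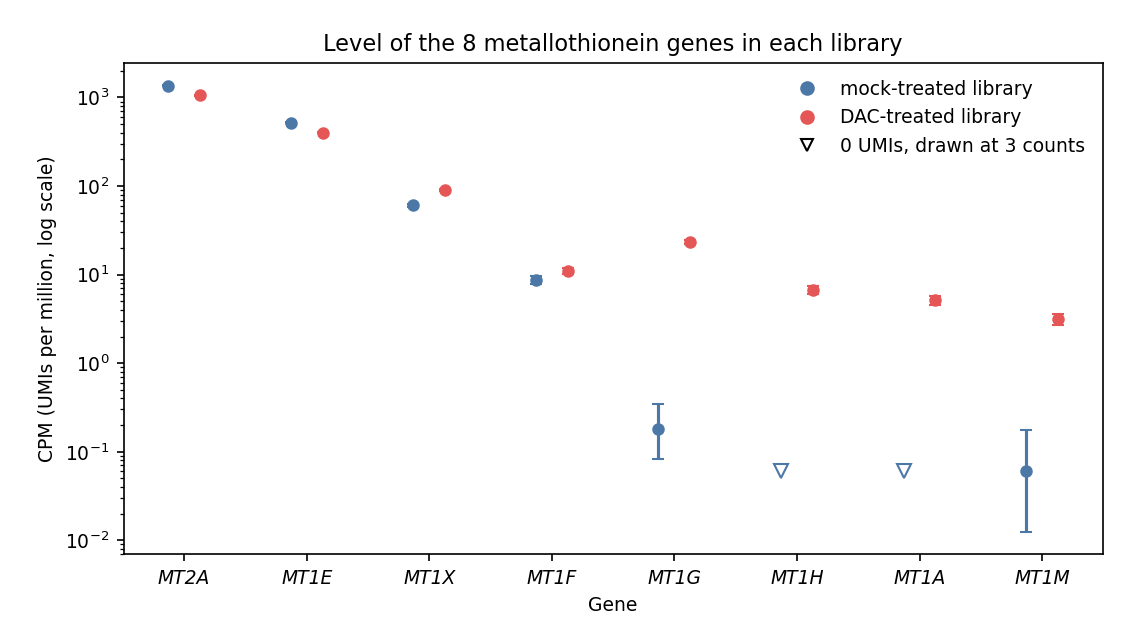
Level of each metallothionein gene in the mock (blue) and DAC (red) library, as CPM on a log axis. Points are UMI sums over all cells, bars are exact Poisson 95% confidence intervals, and open triangles mark the mock libraries of *MT1H* and *MT1A*, with 0 UMIs, drawn at 3 counts (0.0601 CPM). *MT2A* and *MT1E* were lower in DAC cells, and *MT1G* went from 0.180 to 23.5 CPM.

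Summed over the 7 *MT1* genes, 29356 UMIs were counted in mock cells and 32036 in DAC cells. The sum was 588 CPM in mock cells and 543 CPM in DAC cells, a ratio of 0.922 (0.908 to 0.937), and *MT1E* held most of it. The 6 *MT1* genes other than *MT1E*, a sum chosen after the values were seen, had 69.6 CPM in mock cells and 140.2 CPM in DAC cells, a ratio of 2.01 (1.94 to 2.10). For every 100 UMIs of *MT2A* there were 43.2 UMIs of *MT1* genes in mock cells and 51.5 in DAC cells. The direction of the *MT1* sum was not the same in all classes of cells, as given below. Since a UMI stands for 1 molecule, these levels were compared between genes without dividing by length. *MT2A* made up 69.8% of the UMIs of the 8 genes in mock cells and 66.0% in DAC cells. *MT1A*, *MT1G*, *MT1H*, and *MT1M* together made up 0.0123% of them in mock cells and 2.41% in DAC cells.

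**Figure D2:**
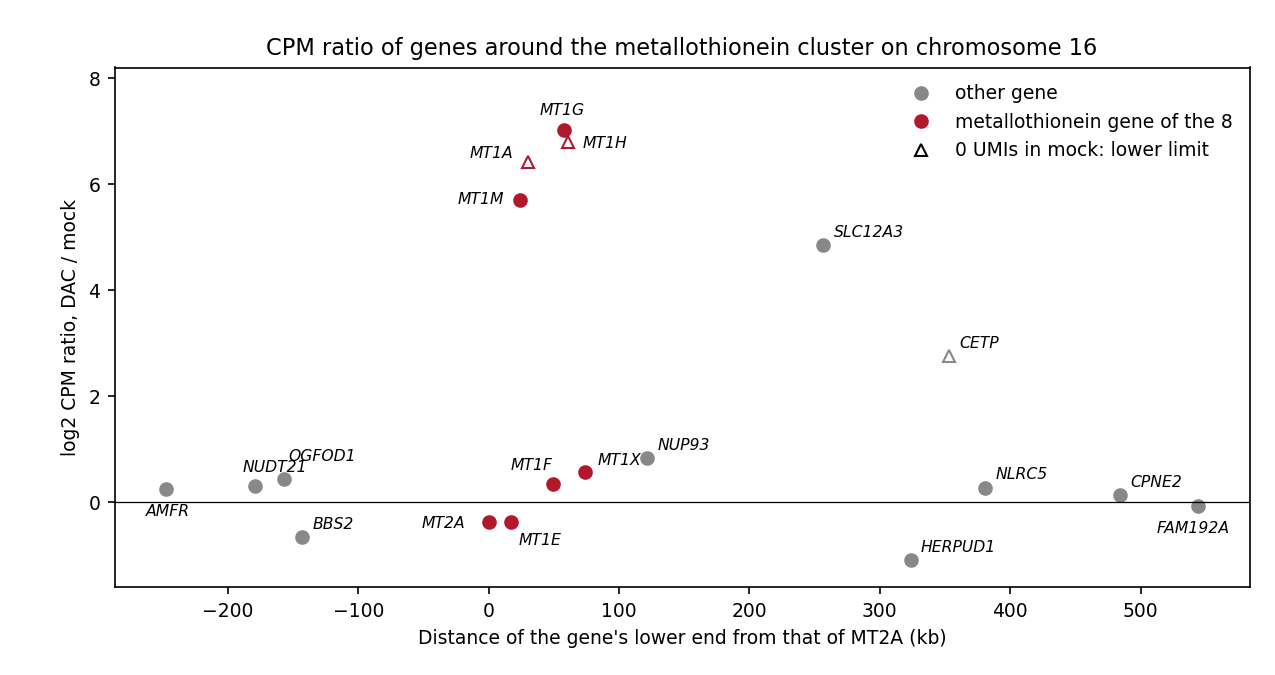
Log2 CPM ratio of DAC over mock cells for genes within 500 kb of the metallothionein cluster that reached 20 UMIs in a library, by distance in kb from *MT2A*. Red marks the 8 metallothionein genes, grey marks other genes, and open triangles are lower limits for genes with 0 UMIs in mock cells. *MT1M* and *MT1A* are between *MT1E* and *MT1F*, and *MT1G* and *MT1H* between *MT1F* and *MT1X*, so that genes with high and low ratios alternate along the cluster.

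The order along the cluster did not follow the level. *MT1M* and *MT1A*, at 5.70 and at least 6.42 on the log2 scale, lie between *MT1E* at -0.37 and *MT1F* at 0.34. *MT1G* and *MT1H* start within a few kb of each other and are followed by *MT1X*. Of the other family members, *MT1B*, which lies between *MT1A* and *MT1F*, had 2 UMIs in mock cells and 5 in DAC cells. *MT3*, the metallothionein best known from brain, had 0 and 4 UMIs, *MT4*, known from stratified epithelium, had 0 and 1, and *MT1HL1* had 0 and 2. Of the 12 family genes in the tables, 8 had fewer than 10 UMIs in mock cells, and 4 of these had 100 UMIs or more in DAC cells. Among all 18060 genes with fewer than 10 UMIs in mock cells, 466 (2.58%) had 100 UMIs or more in DAC cells, a limit chosen after the values were seen. Only 1778 of the 18060 had 20 UMIs or more in DAC cells, so most of them had few UMIs in both libraries. The 4 family genes that did not reach 100 UMIs had at most 5 UMIs.

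On either side of the cluster, the nearest genes with 20 UMIs or more were *BBS2* and *NUP93*. *BBS2*, a gene of primary cilia, had 393 UMIs in mock cells and 296 in DAC cells, a log2 CPM ratio of -0.65. *NUP93*, a gene of the nuclear pore, had 1258 and 2643 UMIs, a log2 CPM ratio of 0.83. Of 17 compared genes in a list of 21 neighbors, 2 were at least 2-fold higher, *SLC12A3* with 1 and 34 UMIs and *CETP* with 0 and 24 UMIs, and 1 was at least 2-fold lower, against 22.9% and 7.61% of all compared genes. *SLC12A3* and *CETP* were compared through their DAC counts alone. The lower gene was *HERPUD1*, an endoplasmic reticulum stress gene with 6202 and 3438 UMIs and a log2 CPM ratio of -1.09. The median log2 ratio of the list was 0.30, against 0.30 over all compared genes.

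At least 1 UMI of *MT2A* was present in 1591 mock cells (89.2%, 95% confidence interval 87.7 to 90.6%) and in 1527 DAC cells (87.2%, 85.6 to 88.7%). For *MT1E* the numbers were 1457 mock cells (81.7%, 79.8 to 83.5%) and 1341 DAC cells (76.6%, 74.5 to 78.6%). *MT1X* was detected in 56.0% of mock cells and 58.3% of DAC cells, and *MT1F* in 20.02% and 23.4%. The share for *MT2A* thus differed by -2.02 percentage points (DAC minus mock), and its intervals overlapped between the libraries. For the 7 *MT1* genes together, the share was 82.7% in mock cells and 81.1% in DAC cells, a difference of -1.63 percentage points, also within overlapping intervals. Without cells under 10000 UMIs or over 50% mitochondrial UMIs, the differences were -0.560 percentage points for *MT2A* and -0.711 for the *MT1* genes. They were larger with 3 UMIs required, at -8.06 and -8.72, and without cells over 20% mitochondrial UMIs, at -6.16 and -8.72.

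*MT1G* was detected in 9 mock cells (0.505%, 0.231 to 0.956%) and in 355 DAC cells (20.3%, 18.4 to 22.2%). *MT1A* was detected in 0 mock cells, with an upper limit of 0.207% for the sampling of cells alone, since molecules missed in a cell are not covered, and in 168 DAC cells (9.59%, 8.26 to 11.1%). *MT1H* was detected in 0 mock cells and in 115 DAC cells (6.57%, 5.45 to 7.83%). *MT1M* was detected in 3 mock cells (0.168%, 0.0347 to 0.491%) and in 77 DAC cells (4.40%, 3.49 to 5.47%). For these 4 genes, the intervals of the libraries did not overlap. The share of all genes with such intervals was not counted, so this carries no weight beyond the values. With 3 UMIs or more, *MT1G* was present in 120 DAC cells, *MT1H* in 42, *MT1A* in 32, and *MT1M* in 19, and each of them in 0 mock cells.

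**Figure D3:**
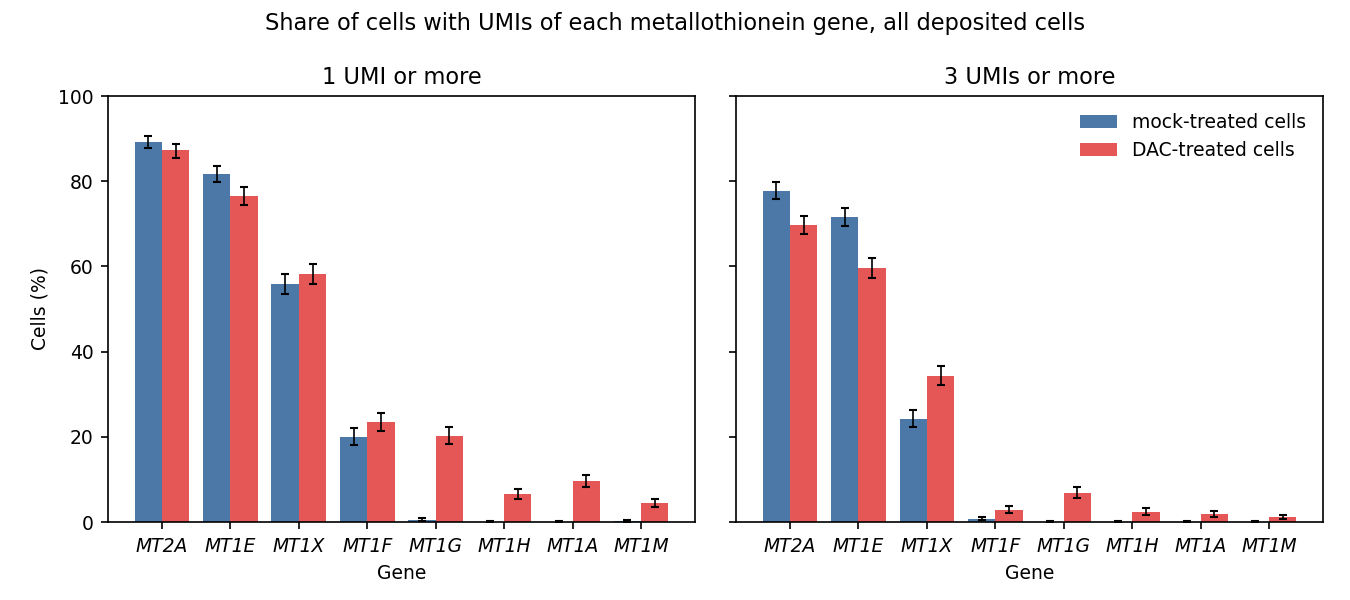
Share of the 1783 mock (blue) and 1751 DAC (red) cells with 1 UMI or more (left) and 3 UMIs or more (right) of each metallothionein gene, with exact Clopper-Pearson 95% confidence intervals. At 1 UMI, *MT2A* was detected in 89.2% and 87.2% of cells and *MT1G* in 0.505% and 20.3%. At 3 UMIs, *MT2A* was at 77.8% and 69.7%.

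Cells were also compared at an equal depth, by drawing 10000 UMIs from each cell, which left out 395 mock and 458 DAC cells with fewer UMIs. *MT2A* was then detected in 97.6% of mock cells and 91.0% of DAC cells, with medians of 10 and 6 UMIs. *MT1E* was detected in 90.4% and 80.4% of them, with medians of 4 and 3 UMIs. Both shares were lower in DAC cells at this depth, in the direction of the CPM. Of the 1388 mock and 1293 DAC cells used, 1298 and 1120 had at most 50% mitochondrial UMIs, and the part of this in the gap was not tested. For *MT1X* the shares were 38.0% and 43.2%, and for *MT1F* 8.29% and 10.5%. *MT1G* was detected in 0.0720% of mock cells and 11.8% of DAC cells, *MT1H* in 0 and 3.79%, *MT1A* in 0 and 3.48%, and *MT1M* in 0 and 2.24%. For the 7 *MT1* genes together, the shares were 92.7% and 85.9%. At this depth the log2 CPM ratio of *MT1G* was 8.25, resting on 1 UMI in mock cells, and those of *MT1H*, *MT1A*, and *MT1M* were at least 4.82, 4.27, and 3.87.

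For *MT2A* and *MT1E*, fewer DAC cells than mock cells had high counts, except at the very top. There, a few DAC cells for *MT2A* and 1 for *MT1E* went beyond the mock cells. At the equal depth, 51 mock cells and 22 DAC cells had 40 or more *MT2A* UMIs, and 17 mock cells and 7 DAC cells had 20 or more *MT1E* UMIs. In contrast, 2 mock cells and 5 DAC cells had 80 or more *MT2A* UMIs, and 0 mock cells and 1 DAC cell had 40 or more *MT1E* UMIs. At the equal depth, the highest *MT2A* count in a cell was 89 in mock cells and 190 in DAC cells, and the 95th percentile was 35 and 29. For *MT1E* the 95th percentile was 13 and 11, and the highest counts were 34 and 79, with 34 in the DAC cell that came next. For *MT1X*, with a 95th percentile of 3 in both libraries, the highest counts were 8 and 62. The variation between cells beyond that of Poisson sampling (squared coefficient of variation) was 0.664 in mock cells and 1.40 in DAC cells for *MT2A*, 0.523 and 1.16 for *MT1E*, and 1.10 and 6.31 for *MT1X*. Without the cell with the most UMIs of the gene in each library, it was 0.646 and 1.16 for *MT2A*, 0.507 and 0.874 for *MT1E*, and 1.03 and 2.98 for *MT1X*. For *MT1G* in DAC cells it was 28.0, and 15.6 without its highest cell. Single cells thus carried much of the DAC values of *MT1X* and *MT1G*, and little of the mock value of *MT1X*. *MT1G* had 1 UMI in mock cells at this depth, and so no mock value.

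**Figure D4:**
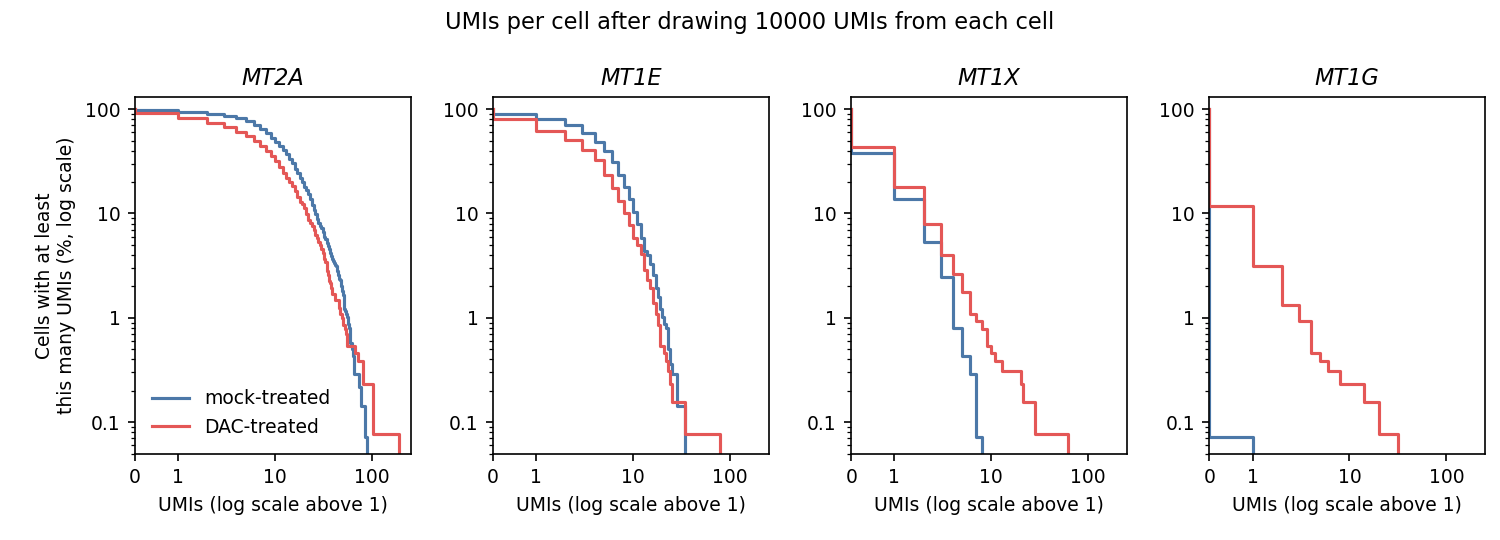
Share of cells (log axis) with at least the number of UMIs on the horizontal axis, after 10000 UMIs were drawn from each of 1388 mock (blue) and 1293 DAC (red) cells. The curves of *MT2A* and *MT1E* were lower in DAC cells at low and middle counts. A few DAC cells reached higher *MT2A* counts, up to 190 UMIs, and 1 DAC cell reached a higher *MT1E* count, 79 UMIs. For *MT1G*, 1 mock cell had 1 UMI and DAC cells reached 32.

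In droplets, free RNA can give UMIs in cells that do not express a gene, and in a single cell line no cell type lacks a gene. Each count was therefore compared with an even share, in which each cell takes the same fraction of its UMIs from the gene. In DAC cells, 1396 cells had no UMI of *MT1G*, against 931.8 from an even share. For *MT1H* 1636 cells had no UMI, against 1418, for *MT1A* 1583 against 1484, and for *MT1M* 1674 against 1580. The numbers of cells with 3 UMIs or more were 42 against 6.68 for *MT1H*, 32 against 3.30 for *MT1A*, and 19 against 0.819 for *MT1M*. The UMIs of these 3 genes were thus held by fewer cells, with more UMIs in each, than in an even share. For *MT1G*, 120 cells had 3 UMIs or more, against 138 from an even share. *MT2A*, which both libraries contained at a high level, also had more cells without a UMI than an even share gives, 192 against 64.0 in mock cells and 224 against 124.6 in DAC cells. The part of free RNA in the single UMIs of *MT1G* was not tested.

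A small number of cells held much of the UMIs of these genes. The 18 DAC cells with the most UMIs of each gene, 1% of the cells, held 41.3% of the UMIs of *MT1G*, 55.6% of *MT1H*, 61.6% of *MT1M*, and 31.6% of *MT1A*. For *MT2A* the same share was 11.3%, for *MT1E* 9.02%, and for *MT1X* 15.0%. A gene with few UMIs has a high share of this kind in any case, as the 9 mock UMIs of *MT1G*, each in a different cell, gave 100%. The shares of genes with different totals therefore cannot be compared. The DAC cell with the most *MT1G* had 116 UMIs of it, with 24 of *MT1H*, 12 of *MT1M*, 2 of *MT1A*, and 116 of *MT2A*, among 51778 UMIs. The next cell had 96 UMIs of *MT1G*, with 21 of *MT1H*, 32 of *MT1M*, 6 of *MT1A*, and 495 of *MT2A*. A high *MT2A* count was not shared by all such cells, since the cell that ranked ninth had 17 UMIs of *MT1G* and 9 of *MT2A* among 81633 UMIs. All 10 cells with the most *MT1G* also contained *MT1H*, and 5 contained *MT1M*. These 10 cells held 33.5% of the *MT1G* UMIs and 1.07% of all UMIs of the library.

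Among mock cells, 12 (0.673%, 0.348 to 1.17%) had a UMI of *MT1A*, *MT1G*, *MT1H*, or *MT1M*, and 0 had UMIs of more than 1 of them. Among DAC cells, 478 (27.3%, 25.2 to 29.5%) had a UMI of at least 1 of these genes. Of these cells, 307 had UMIs of 1 gene, 118 of 2 genes, 40 of 3 genes, and 13 of all 4. At least 2 of the 4 genes were present in 171 DAC cells, against 118.4 if the genes were detected independently of one another in each of 10 groups of cells ranked by depth, a ratio of 1.44. All 8 metallothionein genes were detected in 8 DAC cells, and no mock cell had more than 5. Detection of any of the 4 genes rose with depth, from 7.71% in the third of the DAC cells with the fewest UMIs to 26.7% in the middle and 47.5% in the third with the most. In mock cells these shares were 0.168%, 0.337%, and 1.52%.

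Co-detection was measured as the number of cells with UMIs of both genes, divided by the number expected within the 10 depth groups. In DAC cells, 89 of the 115 cells with *MT1H* (77.4%) also had *MT1G*, against 34.4 expected, a ratio of 2.59 (2.09 to 3.16). *MT1H* and *MT1M* were found together in 29 cells, against 6.99 expected, a ratio of 4.15 (2.78 to 5.93). *MT1G* and *MT1M* were found together in 48 cells, against 21.8 expected, a ratio of 2.20 (1.63 to 2.91). The ratio was 1.68 (1.36 to 2.07) for *MT1A* and *MT1G*, 2.11 (1.49 to 2.90) for *MT1A* and *MT1H*, and 2.40 (1.57 to 3.50) for *MT1A* and *MT1M*. All 6 pairs were therefore found together in more cells than expected from depth alone. At 10000 UMIs per cell the ratio of *MT1G* and *MT1H* was 4.83, and with 3 UMIs required it was 6.74. Over all alternatives the 6 ratios ran from 1.58 to 6.74. With *MT1F*, each of the 4 genes had a ratio from 1.21 to 1.45. Assignment of reads of 1 molecule type to another copy would also give co-detection, and its part was not tested.

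**Figure D5:**
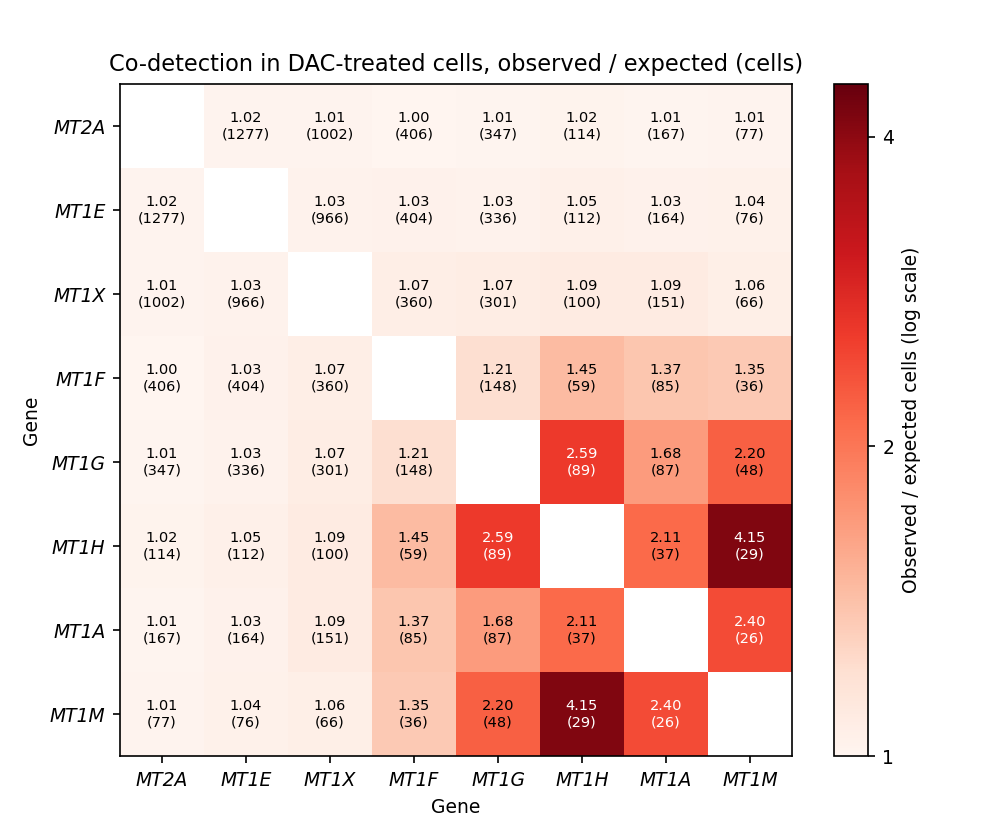
Number of DAC cells with UMIs of both genes of a pair, divided by the number expected within the 10 depth groups (color, log scale), with the observed number of cells in parentheses. Pairs among *MT1G*, *MT1H*, *MT1A*, and *MT1M* had ratios from 1.68 to 4.15, and pairs with *MT2A* had ratios from 1.00 to 1.02.

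For the *MT1* genes together and *MT2A*, co-detection was close to that expected. In mock cells 1426 cells had both, against 1397 expected, a ratio of 1.02 (0.996 to 1.04), and in DAC cells 1338 had both, against 1318, a ratio of 1.02 (0.988 to 1.04). Most cells had *MT2A* (89.2% of mock and 87.2% of DAC cells), which limits what this ratio can show. Drawing 1007 UMIs from each cell, the 10th percentile over both libraries, gave ratios of 1.24 in mock cells and 1.34 in DAC cells. Levels across cells were also related. At 10000 UMIs per cell, the Pearson correlation of log2(1 + UMIs) between *MT1E* and *MT2A* was 0.61 over 1388 mock cells and 0.60 over 1293 DAC cells. Between *MT1X* and *MT2A* it was 0.24 and 0.35. The cells used included those with over 50% mitochondrial UMIs, in which both *MT2A* and *MT1E* were low, as given below for *MT2A*. *TMSB10*, a gene outside the family, reached 0.57 in mock cells and 0.58 in DAC cells with the summed UMIs of the 8 genes. Values near those of *MT1E* and *MT2A* were thus not particular to the family. The cells of a library share its preparation, and these values are a description.

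DAC cells with *MT1G* also had more of the abundant members. At 10000 UMIs per cell, the 153 cells with a UMI of *MT1G* had a mean of 15.98 *MT2A* UMIs (median 11), and the 1140 cells without it had a mean of 8.58 (median 6). The means of *MT1E* were 6.31 and 3.35, and those of *MT1X* were 2.16 and 0.712. *MT1H* had means of 0.353 and 0.0219, and *MT1M* of 0.176 and 0.0123. Before the drawing, the cells with *MT1G* had a median of 49647 UMIs, of which 18.3% were mitochondrial, and those without it a median of 43152 UMIs, of which 19.2% were mitochondrial. Among cells with at most 20% mitochondrial UMIs, the means of *MT2A* were 17.2 in 92 cells with *MT1G* and 9.84 in 606 cells without it. The 29 cells with *MT1M* had a mean of 27.6 *MT2A* UMIs (median 17), and the 1264 without it a mean of 9.04 (median 6). The medians of *MT2A* were closer for *MT1H*, at 10 in cells with it and 6 without it, and for *MT1A*, at 9 and 6. These groups of cells were formed from measured UMIs, and no test was made between them.

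Across cells, the genes most correlated with the summed UMIs of the 8 genes were *TMSB10*, an actin-binding gene, and genes of ribosomal proteins. In mock cells, Pearson's r was 0.57 for *TMSB10*, and *RPS12*, *RPL12*, *RPL13*, *RPLP1*, *RPL19*, *RPL32*, *RPL15*, and *RPL28* were also among the highest, down to 0.52 for *RPL28*. In DAC cells, it was 0.58 for *TMSB10*, and *RPLP1*, *RPS12*, *RPL41*, *RPL19*, *RPL8*, *RPS2*, *RPL13*, and *RPL28* were also among the highest, down to 0.53 for *RPL28*. The median over all genes was 0.04 in both libraries, and genes of ribosomal proteins as a group had a median of 0.49. The lowest values belonged mostly to genes of the mitochondrial genome (10 of the lowest 10 in mock cells and 9 in DAC cells), with -0.55 for *MT-CO3* in mock cells and -0.46 for *MT-ND3* in DAC cells. In cells with more than 50% mitochondrial UMIs, *MT2A* was at 184 CPM in 311 mock cells and 176 CPM in 319 DAC cells. In cells with at most 20%, it was at 1497 CPM in 1176 mock cells and 1136 CPM in 976 DAC cells, and in the cells between these limits it was at 1089 CPM in 296 mock cells and 1085 CPM in 456 DAC cells. The lower *MT2A* level of the DAC library was thus found mainly in cells with at most 20%. The *MT1* sum was lower in DAC cells only in the class with at most 20%, at 631 and 589 CPM, and was higher at 544 and 551 CPM between the limits and at 66.6 and 96.1 CPM over 50%. In cells over 50%, the sign of *MT1E* turned, with a log2 CPM ratio of 0.30, and *MT1F* had 3 UMIs in each library, too few for a direction. In the third of each library with the most UMIs, the *MT1* sum was 582 CPM in mock cells and 598 CPM in DAC cells, against 666 and 484 CPM in cells of middle depth and 342 and 257 CPM in those with the fewest UMIs. The direction of the *MT1* sum therefore depended on which cells were used. *MT1G* was at 4.24 CPM in DAC cells with more than 50% and 25.8 CPM in those with at most 20%. The composition of a cell's UMIs and its metallothionein level thus moved together in both libraries, and the part of cell quality in the differences between the libraries was not tested. A cell's total includes its mitochondrial UMIs, so a higher mitochondrial share leaves fewer UMIs for all other genes. The part of this in the correlations and levels was not tested.

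The genes that control metallothioneins were described by their counts. *MTF1*, the zinc-responsive activator, had 934 UMIs in mock cells and 1597 in DAC cells, a log2 CPM ratio of 0.53. *NR3C1*, the glucocorticoid receptor, had 542 and 959 UMIs, a log2 CPM ratio of 0.58. Of the 6 listed regulators, 0 were past 2-fold, against 22.9% higher and 7.61% lower among all compared genes, with a median log2 ratio of 0.39 against 0.30 over all compared genes. *NFE2L2*, an oxidative stress regulator and the most abundant of them, had 7513 and 5389 UMIs, a log2 CPM ratio of -0.72, and *USF2* was at -0.42. *SLC30A1*, the zinc exporter of the plasma membrane and another target of MTF1, had 270 and 587 UMIs, a log2 CPM ratio of 0.88. Of the 9 compared zinc exporters, 3 were at least 2-fold higher and 0 lower, with a median of 0.87, and *SLC30A9* was at -0.68. Those past 2-fold, against 22.9% of all compared genes, were *SLC30A4*, a vesicular transporter with 74 and 185 UMIs, *SLC30A2* with 1 and 23, and *SLC30A8* with 0 and 21, of which *SLC30A2* and *SLC30A8* were compared through their DAC counts alone. The 11 compared zinc importers were all within 2-fold, against the same shares, with a median of 0.10.

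Of the 12 compared genes of copper handling, 2 were at least 2-fold higher and 0 lower, against 22.9% and 7.61% of all compared genes, with a median log2 ratio of 0.39. *ATOX1*, a copper chaperone, had 3820 UMIs in mock cells and 17422 UMIs in DAC cells, a log2 CPM ratio of 1.95. *COX17*, which carries copper to cytochrome c oxidase, had 3272 and 8084 UMIs, a log2 CPM ratio of 1.06. Heat shock genes, which metals such as cadmium also induce, were mostly higher in DAC cells, 6 of 9 by at least 2-fold, against the same 22.9%, with a median of 1.54. *HSPA1A*, an inducible chaperone, had 17 and 4268 UMIs, and *HSPA1B*, a close copy with which it can share reads, had 1235 and 4246. *HSPA6* had 0 and 108 UMIs, a CPM at least 30.4-fold higher, but 1 DAC cell held 86 of these UMIs, and without it the CPM was at least 6.20-fold higher. The log2 CPM ratios of *HSPA8*, *HSPH1*, and *DNAJB1*, also chaperones or co-chaperones, were 1.65, 1.84, and 1.00. *DNAJB1*, *COX17*, *SLC30A4*, and the epithelial keratin *KRT18*, at 1.00, 1.06, 1.08, and 1.08, exceeded 2-fold by less than the 0.18 of median-of-ratios scaling.

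Glucocorticoid targets went in both directions, 3 of 9 compared genes at least 2-fold higher and 3 at least 2-fold lower, against 22.9% and 7.61% of all compared genes, with a median log2 ratio of -0.39. *ERRFI1*, an inhibitor of EGF receptor signaling, had 23408 UMIs in mock cells and 3424 in DAC cells, a log2 CPM ratio of -3.02. *TSC22D3*, a glucocorticoid-induced regulator of inflammation, had 1196 and 284 UMIs, a log2 CPM ratio of -2.32. *KLF9*, a transcription factor, had 785 and 371 UMIs, a log2 CPM ratio of -1.32. The higher genes were *SGK1*, a kinase, at 2.80, *BIRC3*, an inhibitor of apoptosis, at 2.57, and *CRISPLD2* at 2.47.

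Cell type markers were checked against the label of a colon cancer line. The colon epithelial markers summed to 5022 CPM in mock cells and 7982 CPM in DAC cells, with *KRT18* the most abundant. Of these 8 genes, *KRT18* and *LGALS4* were at least 2-fold higher in DAC cells, at 1.08 and 3.64 on the log2 scale, and *CLDN4* was at least 2-fold lower, at -1.67, against 22.9% and 7.61% of all compared genes. *EPCAM* was at -0.65, and the median of the list was 0.30, as over all compared genes. Fibroblast markers summed to 10.8 and 19.7 CPM, nearly all of it *COL1A1*, and *COL1A2*, *DCN*, and *LUM* had 0 UMIs in mock cells and 9, 31, and 5 in DAC cells, while *COL3A1* had 5 in each library. Leukocyte markers summed to 6.79 and 12.3 CPM, led by *CD68*, with *PTPRC* at 0 and 16 UMIs and *CD3E* at 0 and 24. Endothelial markers summed to 0.120 and 1.91 CPM, led by *VWF*, with *PECAM1* at 0 and 46 UMIs and *CDH5* at 0 and 5. Hepatocyte markers, of a tissue rich in metallothioneins, summed to 0.341 and 0.559 CPM, led by *APOA1*, with *ALB* at 1 and 4 UMIs and *TTR* at 0 and 2. Erythroid markers summed to 0.902 and 2.83 CPM, with *HBB* at 0 and 5 UMIs. Of the compared genes, 1 of 2 fibroblast, 3 of 4 leukocyte, 2 of 2 endothelial, 0 of 1 hepatocyte, and 1 of 2 erythroid markers were at least 2-fold higher in DAC cells, and 0 were lower, against 22.9% and 7.61% of all compared genes. Whether other cells were present in either library was not tested.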

How the data were processed

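The deposited values were raw UMI counts per gene and cell, 1 table per library. Per the labels and the study's methods, the authors made them with a 10x Genomics 3′ kit, mapping reads to hg38 and counting UMIs with Cell Ranger. The annotation release and any filter on cells are not given in the sources used here. All deposited cells were used, 1783 with a total of 49911689 UMIs (mock) and 1751 with 59046165 (DAC). Counts were summed per library and scaled to CPM using Python 3.11.15, numpy 2.4.6, scipy 1.17.1, and pandas 2.3.3, with figures by matplotlib 3.10.9, and positions were taken from GENCODE release 44. UMI sums have exact Poisson intervals, shares of cells Clopper-Pearson intervals, and CPM ratios conditional binomial intervals, all at 95% and for counting error alone. A count of 0 was replaced by 3 counts over the library in ratios. A gene was detected with 1 UMI, and thinning drew UMIs without replacement. With 1 library per group there was no test between groups. Doublets were not called, since a doublet of cells of the same line has no marker of its own, and the 5% of cells with the highest totals were dropped instead as an alternative. Other alternatives were median-of-ratios scaling, mean per-cell CPM, totals without mitochondrial genes, filters on depth and mitochondrial share, other thresholds, and, chosen after seeing the data, leaving out shared barcodes, using only classes of cells by mitochondrial share or depth, and the co-detection of pairs of low members. The computations were tested on simulated data. The members and lists were chosen with earlier results of these data known. Named genes were the members, other listed family genes, the nearest neighbors, most list genes past 2-fold with at least 100 UMIs in whichever library had more, *MTF1*, *SLC30A1*, *NR3C1*, and genes among the 10 most correlated with the summed members among genes with a UMI in 5% of cells. Other genes named beside a count or as examples were chosen after their values were seen.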

Additional observations from a re-analysis of the deposited data

How the results depend on the processing

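The log2 CPM ratio of *MT2A* was below 0 in all 12 alternatives, and that of the *MT1* sum in 9 of 12. Leaving out the shared barcodes, and using only cells with 20 to 50% or over 50% mitochondrial UMIs or only the third of cells with the most UMIs, were chosen after seeing the data. In these last 3, the ratio of the *MT1* sum was reversed, at 0.0201, 0.53, and 0.0368, and that of *MT2A* was -0.00461, -0.0643, and -0.32. The third with the most UMIs was taken within each library, so its depth was not matched between the libraries. For the *MT1* sum, -0.12 as reported, the ratio was -0.30 with median-of-ratios scaling, -0.0735 without mitochondrial genes in the totals, -0.17 without the 5% of cells with the most UMIs, -0.24 with cells thinned to 1007 UMIs, and -0.23 with 10000 UMIs. For *MT2A*, -0.37 as reported, it was -0.55 with median-of-ratios scaling, -0.29 with the mean of per-cell CPM, -0.33 without mitochondrial genes in the totals, -0.39 without the 5% of cells with the most UMIs, -0.40 without cells over 20% mitochondrial UMIs, -0.35 without cells under 10000 UMIs or over 50% mitochondrial UMIs, and -0.48 at 10000 UMIs. Over the 82 values of the other 7 members, 2 changed sign, *MT1E* at 0.30 and *MT1F* at -0.70, both in cells over 50% mitochondrial UMIs, where *MT1F* had 3 UMIs in each library, too few for a direction. At 1007 UMIs per cell, *MT1A* and *MT1M* were at 0.83 and 0.51, where the count of 0 in mock cells limits the ratio.

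The difference in the share of cells (DAC minus mock, in percentage points) was below 0 in all 8 alternatives for both. For the *MT1* genes, -1.63 as reported, it was -7.11 with 2 UMIs required, -8.72 with 3 UMIs, -8.72 without cells over 20% mitochondrial UMIs, -6.13 at 1007 UMIs, -6.73 at 10000 UMIs, and -0.711 without cells under 10000 UMIs or over 50% mitochondrial UMIs. For *MT2A*, -2.02 as reported, these values were -5.93, -8.06, -6.16, -11.1, -6.67, and -0.560. These gaps depended on depth and on the cells used, and the cause was not tested.

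The co-detection ratio of the *MT1* genes and *MT2A* was 1.24 in mock and 1.34 in DAC cells at 1007 UMIs, and 1.08 in both without the depth groups. In mock cells it was 1.00, just below 1, without cells under 10000 UMIs or over 50% mitochondrial UMIs, and in DAC cells 1.05 with 3 UMIs required. In the 6 pairs of low members it was above 1 in all 46 values computed, which leave out 1007 UMIs per cell and pairs with fewer than 1 expected cell. The genes at least 2-fold higher and lower, 3802 and 1261 as reported, numbered 2101 and 844 with a minimum of 100 UMIs, 3192 and 1668 with median-of-ratios scaling, and 6024 and 2456 at 1.5-fold. No paired analysis was possible because each group had 1 library.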
